A study of Homo sapiens with 12 samples.

Results

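Ribosome biogenesis was followed through 45 genes in KYSE70 cells, a line derived from a human esophageal squamous cell carcinoma. The genes are MYC and 44 genes of the nucleolus, chosen by name, and all 45 were found once each among the 58884 rows of the deposited table. They were ordered by role into MYC itself, 7 genes of RNA polymerase I transcription, 8 of the snoRNP core, 3 nucleolar proteins that act at several steps, 13 of the pre-60S and 13 of the pre-40S pathway. All 45 passed the filter on low values. The 12 libraries came from 4 samples given 20 nM mitoxantrone for 72 h, 4 given 10 µM pyrimethamine for 72 h and 4 controls without treatment. All were the same line in the same serum-supplemented medium. Mitoxantrone, used against cancers, inserts itself into DNA and blocks type II topoisomerases, and pyrimethamine is an antifolate. The labels do not say whether control cells received a vehicle, and no time in culture was found for the controls. A difference in culture time could not be told apart from the drugs. Nor do the labels say whether the 4 samples of a group were separate cultures. P-values thus measure only the spread between these samples, which may be technical.

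Ribosome production starts in the nucleolus, where RNA polymerase I copies the ribosomal DNA into a long precursor. Small nucleolar RNPs modify this RNA, and assembly factors cut and fold it into the large (60S) and small (40S) subunits. MYC is a transcription factor known to activate the RNA polymerase I machinery and many genes of these factors, and growing tumor cells make ribosomes at a high rate. The RNAs compared here are those of the factors. Neither the ribosomal RNA precursor nor the amount of ribosomes was measured.

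Libraries held 47465335 to 94516756 reads assigned to genes. Each value is a read count divided by 1 factor for its library, called a normalized count here. All 8 squamous and epithelial markers checked, among them KRT5, TP63 and SOX2, were present. Of 12 markers of leukocytes, endothelium and fibroblasts, VWF, COL1A1 and COL3A1 were expressed in all groups, PTPRC reached 29.4 normalized counts under pyrimethamine, and the others stayed under 10 in every library. Marker levels differed between groups: VWF had a median of 225 normalized counts under mitoxantrone, 1103 under pyrimethamine and 1004 in controls, COL1A1 4320, 11219 and 14957, SOX2 18026, 6647 and 9087, and CDH1 9286, 20819 and 19632, in the same order of groups. Their part in the results below was not tested. Transcripts of the mitochondrial genome took 3.23% to 3.89% of reads under mitoxantrone, 6.83% to 8.33% under pyrimethamine and 6.16% to 6.69% in controls, and the part of this difference in the results below was not tested. For the 43 members that averaged 100 normalized counts or more, the median coefficient of variation between libraries was 4.94% under mitoxantrone, 3.35% under pyrimethamine and 3.46% in controls. Mitoxantrone replicate 1 stood apart: over all genes it differed from the other mitoxantrone libraries by a chi-square per degree of freedom of 28.5 to 41.0, and those differed among themselves by 6.14 to 12.8. It was the lowest of its group for 27 of 45 members, and control replicate 1 for 30 of 45.

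Under mitoxantrone the ribosome biogenesis genes were mostly higher than in controls, and under pyrimethamine they split, in proportions that depended on the scaling of the libraries. A gene was called at an adjusted p under 0.05 (limma on log2(normalized count + 1), Benjamini-Hochberg over 16950 genes). Of 45 members, 26 were higher and 10 lower under mitoxantrone than in controls, and 9 were not called. Over all tested genes that comparison called 69.3%, with 33.5% higher and 35.8% lower. Under pyrimethamine 10 members were higher and 16 lower than in controls, and 19 were not called, where all tested genes gave 53.3% called, 26.4% higher and 26.9% lower. Between the drugs, 28 members were higher and 9 lower under mitoxantrone than under pyrimethamine, and 8 were not called, against 76.4% of all tested genes called, 36.9% higher and 39.5% lower. Genes with more reads are called more often, and 43 members averaged 100 normalized counts or more. Of 12097 genes with such a mean, 5053 were higher and 4230 lower for mitoxantrone against control. The counts were 3697 and 4189 for pyrimethamine against control, and 5434 and 4566 between the drugs. By library, 25 members lay wholly above and 6 wholly below the controls under mitoxantrone (29.9% and 31.0% of all tested genes, 60.9% in either direction), and 11 above and 15 below under pyrimethamine (25.8% and 25.4%, 51.1% in either). Mitoxantrone lay wholly above pyrimethamine for 25 members and below for 8 (33.3% and 35.5% of all tested genes, 68.8% in either). Without mitoxantrone replicate 1, members higher and lower numbered 30 and 10 for mitoxantrone against control, 12 and 18 for pyrimethamine against control and 29 and 9 between mitoxantrone and pyrimethamine. In bulk RNA, fewer cells making a transcript and less transcript per cell cannot be told apart.

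The changes were small in size. The median log2 change of the 45 members was 0.20 for mitoxantrone against control, beside -0.0080 for all tested genes, and -0.05 for pyrimethamine against control, beside 0.0018 for all. Between mitoxantrone and pyrimethamine it was 0.22, beside -0.02 for all. Apart from DDX47, which had few reads, no member changed by a log2 value beyond 0.83 in any of the 3 comparisons. After rescaling all libraries to 1 common total, 24 members were higher and 12 lower under mitoxantrone, and 8 were higher and 25 lower under pyrimethamine, each against control. That scaling also moved the calls over all genes: for mitoxantrone against control 38.0% of calls were higher after it and 48.4% before it, and for pyrimethamine against control 39.8% after it and 49.5% before it. The 9 members it added as lower under pyrimethamine were DKC1, NCL, DDX21, PES1, LAS1L, GNL2, RRP1, NIP7 and BYSL, at -0.18 to -0.09. Upper-quartile rescaling gave 14 members higher and 14 lower under pyrimethamine, adding NPM1, NOP16, RRP1B and RRP9 as higher and losing DDX18 and NOP14, with 55.8% of calls over all genes higher. Quantile normalization gave 9 higher and 21 lower.

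**Figure D1:**
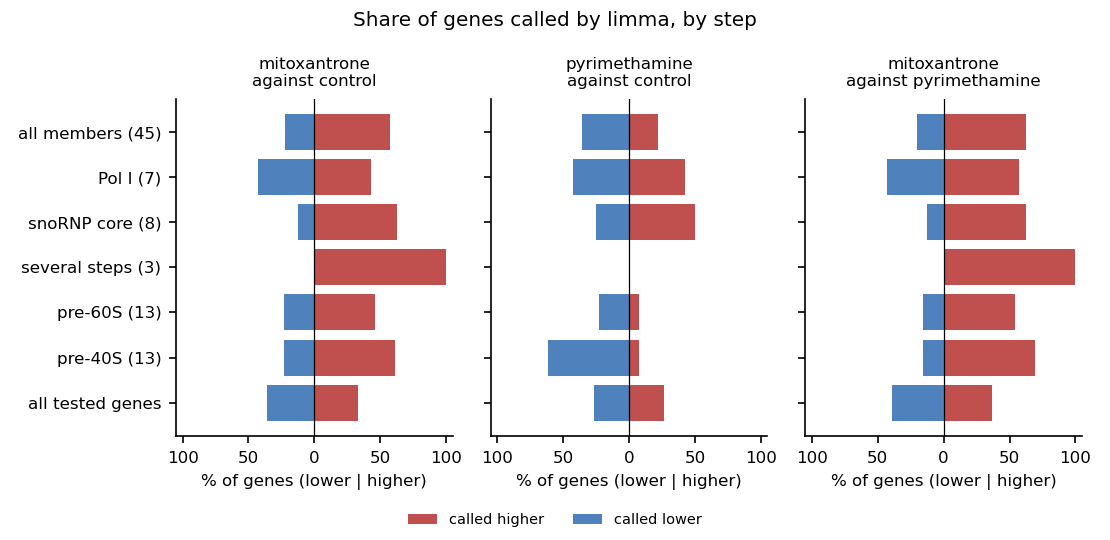
Share of genes called higher (right, red) or lower (left, blue) by limma in each comparison, for all 45 members, for 5 groups of members by step and for all tested genes; the numbers in brackets are genes per group. Under mitoxantrone against control, 26 of 45 members lie on the higher side and 10 on the lower, and under pyrimethamine against control 10 and 16.

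The heat map by library shows that the members do not move as a block. Both drugs share the controls, so the 2 comparisons with control are not independent, and the calls are set side by side. Of the 45 members, 12 were higher under mitoxantrone and lower under pyrimethamine, each against control: UBTF, POLR1D, FBL, WDR12, GNL3, DDX18, NOP14, DDX10, NOB1, UTP14A, UTP18 and UTP20. The reverse, lower under mitoxantrone and higher under pyrimethamine, held for 5: RRN3, POLR1A, POLR1B, NOP10 and DDX47. Over all tested genes these patterns took 13.3% and 12.6%, against 26.7% and 11.1% of the members. In the same direction with both drugs were 5 members (11.1%, and 14.2% of all tested genes), of which MYC, NOP56, NHP2 and BOP1 were higher and WDR75 lower. A further 9 (20.0%, and 1982 of all 16950 tested genes) were higher under mitoxantrone than in either other group and not called for pyrimethamine against control: TCOF1, NOP58, DKC1, NCL, NPM1, DDX21, NOP16, LAS1L and WDR43.

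**Figure D2:**
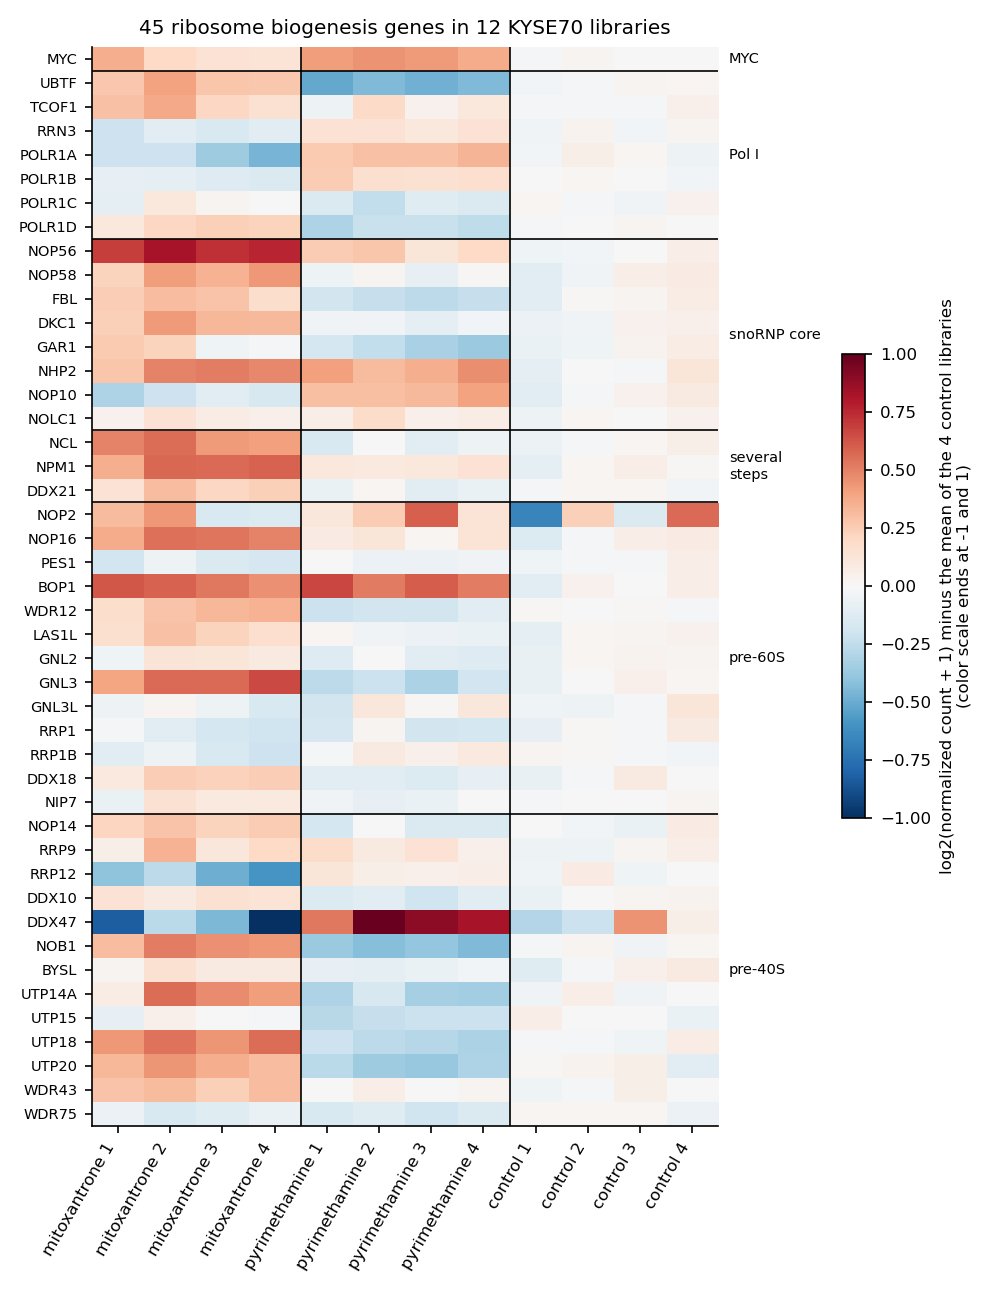
Log2(normalized count + 1) minus the mean of the 4 control libraries, for 45 members (rows, by step) in 12 libraries (columns, mitoxantrone, then pyrimethamine, then control). Red is higher and blue lower than the control mean. DDX47, at few reads, has the lowest log2 change under mitoxantrone (-0.71) and the highest under pyrimethamine (0.81). Among the other members, NOP56, BOP1, GNL3 and NPM1 are highest under mitoxantrone. BOP1 is highest of these others under pyrimethamine, and RRP12 lowest under mitoxantrone.

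MYC rose with both drugs. The gene (ENSG00000136997) lies on chromosome 8 at 127735434 to 127741434 of GRCh38. It had 12496, 11146, 10721 and 10701 normalized counts under mitoxantrone, 13000, 13231, 13012 and 12532 under pyrimethamine, and 9581, 9890, 9669 and 9710 in controls. The 3 groups did not overlap, with pyrimethamine highest and controls lowest. Pyrimethamine gave a log2 change of 0.41 ± 0.04 (SE) against control, 1.33-fold (limma adjusted p = 4.44e-08). Mitoxantrone gave 0.21 ± 0.04 (SE), 1.16-fold (limma adjusted p = 1.45e-04), and 0.16 without mitoxantrone replicate 1, the highest of its group. Mitoxantrone against pyrimethamine was -0.20 ± 0.04 (SE; limma adjusted p = 1.77e-04).

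Of 13 genes of the MYC network, 12 passed the filter, and MYCN did not. Under mitoxantrone 3 of the 12 were higher and 6 lower than in controls, where all tested genes gave 33.5% and 35.8%. Under pyrimethamine 3 were higher and 4 lower, near the 26.4% and 26.9% of all tested genes. MXD1, a MAX partner that opposes MYC, averaged 209 ± 29.8 normalized counts under mitoxantrone against 499 ± 42.7 in controls (SD, n = 4 each), a log2 change of -1.26, and MXD4 of the same family had -0.48. The related genes MXD3 and MXI1 rose by 0.47 and 0.40. MAX, the obligate partner of MYC, had -0.41 under mitoxantrone (limma adjusted p = 4.41e-08), and was chosen after its values were seen. Under pyrimethamine MYCL, a MYC paralog, rose by 0.59 and MXD1 by 0.38, and ZBTB17 and FBXW7, a partner of MYC in repression and a ubiquitin ligase component that marks it for degradation, had -0.32 and -0.29.

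Well-known MYC targets outside the ribosome were tested as a separate list of 17 genes. Under mitoxantrone 13 were higher and 3 lower than in controls, with a median log2 change of 0.26. Under pyrimethamine 9 were higher and 3 lower, with a median of 0.18. Over all tested genes 33.5% were higher and 35.8% lower under mitoxantrone, and 26.4% and 26.9% under pyrimethamine. SHMT2, the mitochondrial serine hydroxymethyltransferase, rose by 0.72 under mitoxantrone and had -0.54 under pyrimethamine. ODC1, the first enzyme of polyamine synthesis, rose by 0.70 under pyrimethamine, and CDK4, a G1 kinase, had -0.58 there. CCND2, encoding cyclin D2, had -1.64 under mitoxantrone and rose by 0.86 under pyrimethamine, and CAD, which starts pyrimidine synthesis, had -0.40 under mitoxantrone. EIF4A1, a helicase of translation initiation, rose by 0.92 under mitoxantrone, at only 43.5 against 23.0 normalized counts. Exon overlap with other genes was not checked for this list, so the true level of EIF4A1 cannot be read from these counts.

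Of 7 genes of RNA polymerase I transcription, 5 were called in opposite directions for the 2 drugs against control, and TCOF1 and POLR1C were called for 1 drug each. Of the 7, 3 were higher, 3 lower and 1 not called in each drug against control, and the members that rose in one drug were not those that rose in the other. All tested genes gave 33.5% higher and 35.8% lower under mitoxantrone, and 26.4% and 26.9% under pyrimethamine. Of them, 13.3% were higher with mitoxantrone and lower with pyrimethamine, and 12.6% the reverse. UBTF (chromosome 17), whose product UBF binds the ribosomal DNA promoter and keeps the repeats active, had 9722, 10648, 9792 and 9730 normalized counts under mitoxantrone, 5664, 5936, 5798 and 5933 under pyrimethamine, and 7935, 7967, 8222 and 8190 in controls. Mitoxantrone libraries all lay above and pyrimethamine libraries all below the controls. The log2 change was 0.30 ± 0.04 (SE) for mitoxantrone (limma adjusted p = 2.26e-07) and -0.47 ± 0.04 (SE) for pyrimethamine (limma adjusted p = 8.61e-10), and mitoxantrone was 1.71-fold above pyrimethamine.

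TCOF1 encodes treacle, a nucleolar scaffold that holds UBF and the polymerase together. It had 16067, 17035, 15066 and 14504 normalized counts under mitoxantrone, 12654, 14903, 13517 and 14050 under pyrimethamine, and 12926, 12878, 12979 and 13571 in controls. Mitoxantrone libraries lay above the controls, and pyrimethamine libraries overlapped both. It rose by 0.26 under mitoxantrone (limma adjusted p = 8.93e-05), and pyrimethamine had 0.07 (limma adjusted p = 0.229). RRN3 encodes TIF-IA, which makes the polymerase competent to start. It had 5419, 5780, 5615 and 5805 normalized counts under mitoxantrone, 6903, 6910, 6715 and 6911 under pyrimethamine, and 6106, 6406, 6136 and 6364 in controls. This order was the reverse of that of UBTF, with no overlap, at -0.15 for mitoxantrone and 0.13 for pyrimethamine against control. With libraries rescaled to the same total the pyrimethamine call was lost (0.08, limma adjusted p = 0.0668), and reads of RRN3 could also come from 2 annotated pseudogene copies.

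POLR1A, the largest subunit, had 9499, 9474, 8541 and 7930 normalized counts under mitoxantrone, 13099, 13451, 13394 and 13847 under pyrimethamine, and 10739, 11412, 11084 and 10591 in controls. POLR1B, the second largest, had 9728, 9712, 9413 and 9307 under mitoxantrone, 12304, 11526, 11481 and 11561 under pyrimethamine, and 10304, 10460, 10361 and 10110 in controls. Both subunits, which form the active site of RNA polymerase I, were below controls in every mitoxantrone library and above them in every pyrimethamine library. For POLR1A the log2 change was -0.31 ± 0.05 (SE) under mitoxantrone and 0.30 ± 0.05 (SE) under pyrimethamine, and for POLR1B -0.11 ± 0.03 (SE) and 0.18 ± 0.03 (SE) in the same order (limma adjusted p = 0.00602 at most).

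POLR1C and POLR1D are also part of RNA polymerase III. POLR1D had 8604, 9243, 9432 and 9340 normalized counts under mitoxantrone, 6483, 6875, 6879 and 6714 under pyrimethamine, and 7893, 7979, 8158 and 8033 in controls. It thus rose by 0.19 under mitoxantrone and had -0.25 under pyrimethamine, with no overlap between groups. POLR1C had 1694, 1946, 1839 and 1815 normalized counts under mitoxantrone, 1635, 1525, 1667 and 1637 under pyrimethamine, and 1832, 1781, 1763 and 1859 in controls. Against control, POLR1C passed the test for pyrimethamine (-0.16, limma adjusted p = 0.00829) and not for mitoxantrone (0.01, adjusted p = 0.863). Also, 18.2% of its exon bases overlap genes on the other strand, so without a known strand setting some reads may be theirs.

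**Figure D3:**
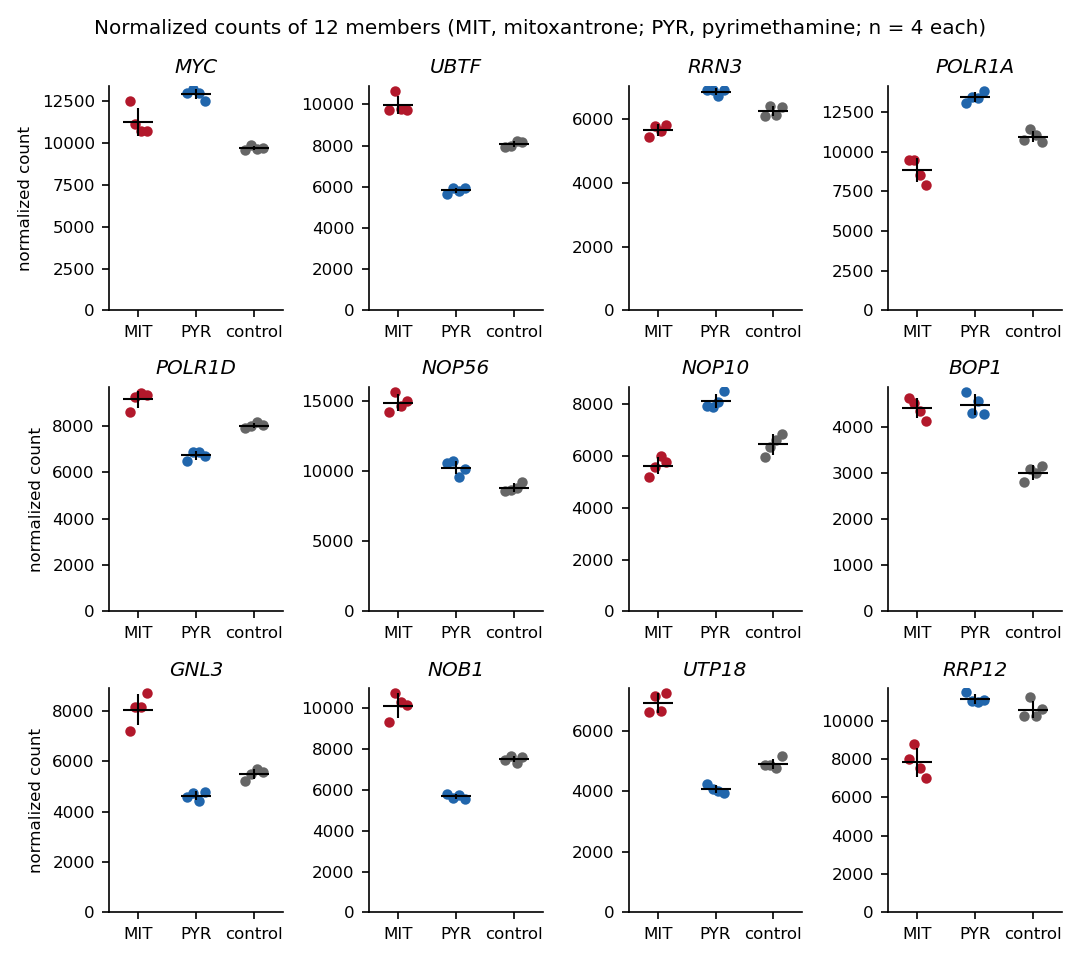
Normalized counts per library (points) with mean and SD (black) for 12 members, in 4 mitoxantrone (MIT), 4 pyrimethamine (PYR) and 4 control libraries; every vertical axis starts at 0. UBTF, POLR1D, GNL3, NOB1 and UTP18 are highest under mitoxantrone and lowest under pyrimethamine, and RRN3, POLR1A and NOP10 show the opposite order.

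A further 17 genes, most of them subunits and factors of RNA polymerase I, were taken as a list. Under mitoxantrone 10 were higher and 5 lower than in controls, and under pyrimethamine 7 were higher and 5 lower. All tested genes gave 33.5% and 35.8%, and 26.4% and 26.9%, in the same order. TAF1D, a subunit of the promoter factor SL1, rose by 0.74 under mitoxantrone, at 7572 ± 657 normalized counts under mitoxantrone against 4530 ± 289 in controls (SD, n = 4 each). NOP53, on the list though no subunit of the polymerase, rose by 0.65 under mitoxantrone. The SL1 subunit TAF1A had -0.33 and the terminator-binding factor TTF1 -0.30 under pyrimethamine. Among subunits shared by all 3 polymerases, POLR2F had -0.51 under mitoxantrone and POLR2L rose by 0.50 under pyrimethamine. CAVIN1, first described as a transcript release factor and now best known as a caveola protein, had -0.58 under mitoxantrone and rose by 0.59 under pyrimethamine.

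Genes of the snoRNP core step, in which NOLC1 was also placed, were mostly higher under mitoxantrone, with 5 of 8 higher and 1 lower than in controls. Under pyrimethamine 4 were higher and 2 lower. All tested genes gave 33.5% higher and 35.8% lower under mitoxantrone, and 26.4% and 26.9% under pyrimethamine. NOP56, a scaffold of the box C/D particles that guide ribose methylation, showed the highest rise of any member under mitoxantrone. It had 14258, 15658, 14684 and 14981 normalized counts under mitoxantrone, 10565, 10718, 9627 and 10138 under pyrimethamine, and 8595, 8690, 8819 and 9262 in controls. The groups did not overlap. The change was 1.68-fold for mitoxantrone (log2 0.75 ± 0.04 SE, limma adjusted p = 6.15e-13) and 1.16-fold for pyrimethamine (log2 0.21 ± 0.04 SE, limma adjusted p = 1.22e-04), each against control. Of the NOP56 exon bases 8.74% overlap small RNA genes on the same strand, and 3 pseudogenes carry its name. Such pseudogenes are annotated for 11 of the 45 members, so some reads may come from them.

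NOP58, the partner of NOP56, rose by 0.36 under mitoxantrone and had -0.02 under pyrimethamine (limma adjusted p = 0.721). FBL, fibrillarin, the methyltransferase of these particles, rose by 0.25 under mitoxantrone and had -0.23 under pyrimethamine, so its mitoxantrone libraries (19177 to 20975) lay above and its pyrimethamine libraries (14178 to 14910) below the controls (15639 to 17878). Between mitoxantrone and pyrimethamine, NOP56, NOP58 and FBL were higher under mitoxantrone, by 0.38 to 0.54. SNU13, the gene of another core protein of these particles and no member, was lower, at -0.37 (limma adjusted p = 2.08e-08). SNU13 averaged 14309 normalized counts under mitoxantrone and 14456 in controls.

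The genes of the box H/ACA proteins, which act in a complex of 4 with RNAs that guide pseudouridylation, did not move together. DKC1, the pseudouridine synthase dyskerin, rose by 0.33 under mitoxantrone and had -0.05 under pyrimethamine (limma adjusted p = 0.318). NHP2 had 8610, 10033, 10159 and 9908 normalized counts under mitoxantrone, 9422, 8865, 9157 and 9812 under pyrimethamine, and 6641, 7096, 6996 and 7741 in controls. It rose by 0.44 and 0.39 under mitoxantrone and pyrimethamine, and the drugs overlapped each other. The drugs differed by 0.05 (limma adjusted p = 0.357), and by 0.11 without mitoxantrone replicate 1 (adjusted p = 0.0267). Reads of NHP2 are uncertain in part, since 27.4% of its exon bases overlap RMND5B on the other strand and 2 pseudogenes carry its name.

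NOP10, the smallest H/ACA protein, had 5204, 5578, 5992 and 5752 normalized counts under mitoxantrone, 7947, 7909, 8081 and 8499 under pyrimethamine, and 5957, 6348, 6616 and 6863 in controls. Its log2 change was -0.19 for mitoxantrone (limma adjusted p = 9.22e-04), where a mitoxantrone library overlapped the controls, and 0.33 for pyrimethamine (limma adjusted p = 3.79e-06), where none did. GAR1 had 2573, 2500, 2084 and 2130 normalized counts under mitoxantrone, 1898, 1805, 1710 and 1660 under pyrimethamine, and 2045, 2085, 2197 and 2258 in controls. GAR1 fell under pyrimethamine (-0.28, limma adjusted p = 8.56e-04), and its mitoxantrone libraries split into a pair above the controls and a pair near them (0.11, limma adjusted p = 0.137, and 0.16 with adjusted p = 0.0366 without mitoxantrone replicate 3). NOLC1, which brings snoRNPs together in the nucleolus and Cajal bodies, had 0.08 under mitoxantrone and 0.09 under pyrimethamine (limma adjusted p = 0.0715 and 0.0434). The first was called without mitoxantrone replicate 1 (adjusted p = 0.0312), and the second call was lost without control replicate 1, 2 or 3, pyrimethamine replicate 2 or 4 or mitoxantrone replicate 3 (limma adjusted p = 0.0536 to 0.177). Among 12 further snoRNP and assembly factors, 7 were higher and 2 lower under mitoxantrone, led by NAF1, an H/ACA assembly factor, at 0.62, and SHQ1, the dyskerin chaperone, at -0.24, and 5 were higher and 4 lower under pyrimethamine, led by SNU13 of the C/D core at 0.35 and COIL, the Cajal body protein coilin, at -0.46. For these counts too, all tested genes gave 33.5% higher and 35.8% lower under mitoxantrone, and 26.4% and 26.9% under pyrimethamine.

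Genes of abundant nucleolar proteins that serve several steps rose under mitoxantrone in 3 of 3. None of the 3 was called for pyrimethamine in the main test, each against control. All tested genes gave 33.5% higher under mitoxantrone and 53.3% called under pyrimethamine. All 3 were also higher under mitoxantrone than under pyrimethamine. NPM1 encodes nucleophosmin, a nucleolar histone and ribosome chaperone. It had 131538, 152748, 152075 and 154269 normalized counts under mitoxantrone, 110087, 109584, 110105 and 113167 under pyrimethamine, and 95879, 104018, 107087 and 103306 in controls. Mitoxantrone was above both other groups, at 0.52 against control (limma adjusted p = 5.86e-09) and 0.41 against pyrimethamine (limma adjusted p = 1.49e-07). Pyrimethamine against control was 0.11 (limma adjusted p = 0.0643), although every pyrimethamine library lay above every control. It was called without mitoxantrone replicate 1 (limma adjusted p = 0.00833), with only the 8 libraries compared (0.00942) and with a replicate block (0.0311). Upper-quartile rescaling (limma adjusted p = 0.0244) and DESeq2 (adjusted p = 0.0361) called it too. It turned to -0.13 under quantile normalization (limma adjusted p = 0.0137). NPM1 has 45 annotated pseudogenes that carry its name, which limits how surely reads were assigned.

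NCL, encoding nucleolin, a nucleolar RNA-binding protein, had 83600, 87112, 79378 and 78460 normalized counts under mitoxantrone, 53334, 58919, 55011 and 56984 under pyrimethamine, and 56642, 58645, 59872 and 61439 in controls. Its mitoxantrone libraries were far above the rest, by 0.47 against control and 0.55 against pyrimethamine. Pyrimethamine had -0.08 against control (limma adjusted p = 0.135), which passed the test at -0.14 with libraries rescaled to the same total (limma adjusted p = 0.00803) and at -0.20 under quantile normalization (limma adjusted p = 4.89e-04). DDX21, a nucleolar RNA helicase, rose by 0.23 under mitoxantrone and had -0.06 under pyrimethamine (limma adjusted p = 0.230), which was called at -0.11 under these same scalings (adjusted p = 0.0113 and 0.00689).

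**Figure D4:**
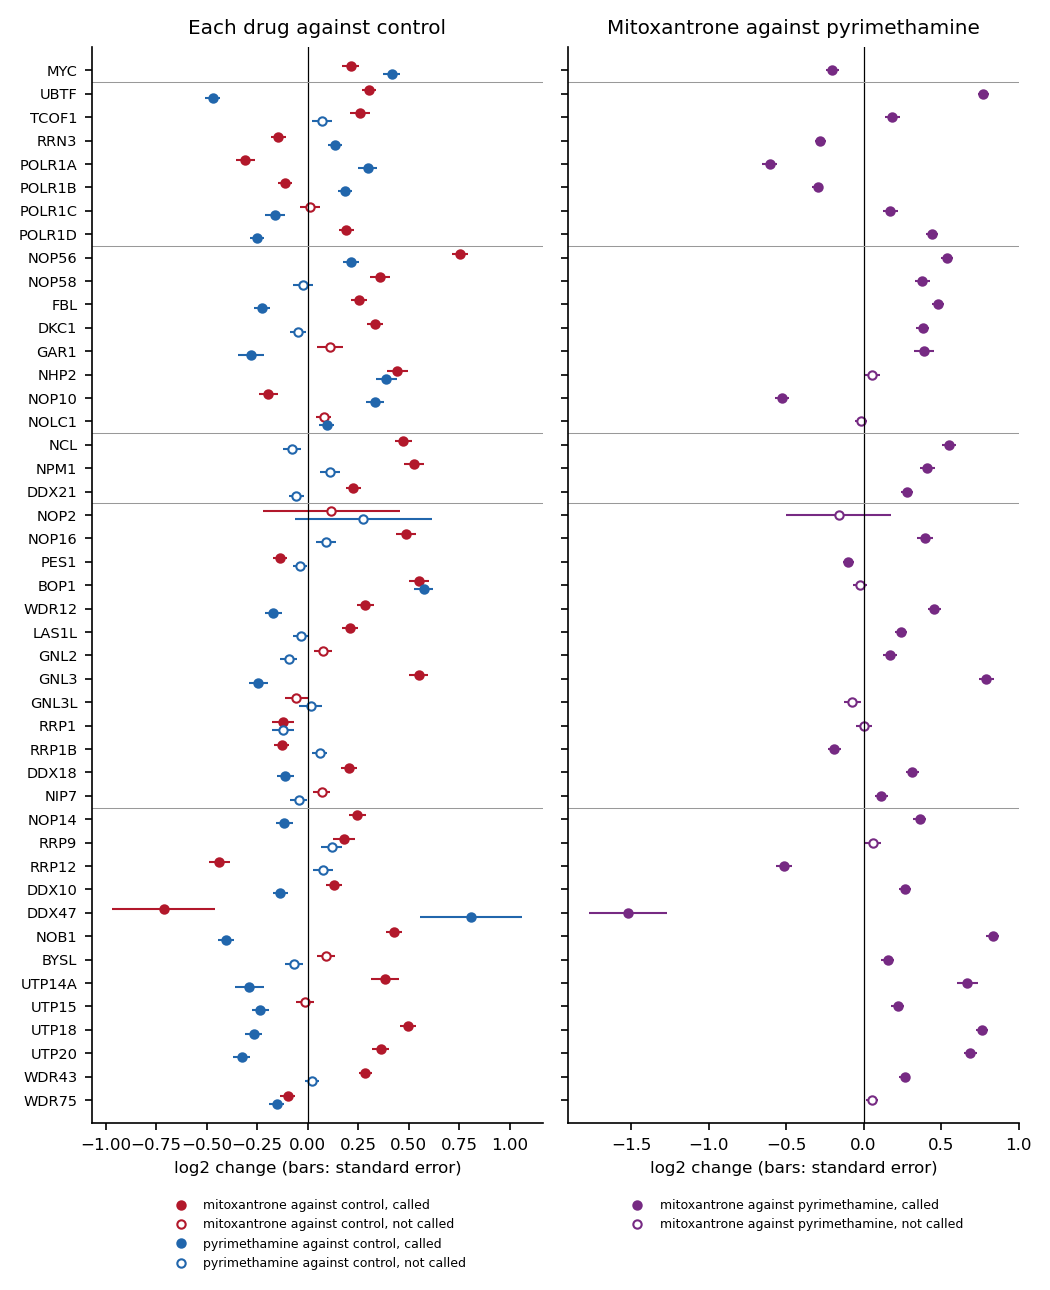
Log2 change with its standard error for each member, mitoxantrone (red) and pyrimethamine (blue) against control on the left and mitoxantrone against pyrimethamine on the right; filled points were called by limma, open points not. BOP1 and NHP2 lie to the right of 0 for both drugs, and NOB1, GNL3, UBTF and UTP18 lie farthest to the right between the drugs, at 0.76 to 0.83.

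In the pre-60S pathway 6 of 13 members were higher and 3 lower under mitoxantrone, and 1 was higher and 3 lower under pyrimethamine, each against control. All tested genes gave 33.5% higher and 35.8% lower under mitoxantrone, and 26.4% and 26.9% under pyrimethamine. The 3 lower members were 23.1% of the step in each drug. PES1, BOP1 and WDR12 form the PeBoW complex, which is needed to mature the long RNAs of the large subunit, and each of the 3 behaved differently. BOP1 had 4645, 4532, 4347 and 4150 normalized counts under mitoxantrone, 4779, 4319, 4575 and 4294 under pyrimethamine, and 2805, 3106, 3001 and 3158 in controls. Every treated library was above every control, at 0.55 ± 0.05 (SE) under mitoxantrone and 0.57 ± 0.05 (SE) under pyrimethamine (limma adjusted p = 1.38e-09 and 2.17e-09), and the drugs overlapped. PES1 had 14674, 16174, 15184 and 14928 normalized counts under mitoxantrone, 16699, 16071, 16118 and 16348 under pyrimethamine, and 16251, 16598, 16649 and 17525 in controls. It was lower under mitoxantrone (-0.14, limma adjusted p = 0.00223) and close to the controls under pyrimethamine (-0.04, limma adjusted p = 0.393), where rescaling to the same total gave -0.10 (adjusted p = 0.0230) and quantile normalization -0.09 (adjusted p = 0.0329). WDR12 rose by 0.29 under mitoxantrone and had -0.17 under pyrimethamine (limma adjusted p = 0.00172).

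GNL3 encodes nucleostemin, a nucleolar GTPase linked to proliferation. It had 7212, 8140, 8155 and 8699 normalized counts under mitoxantrone, 4596, 4740, 4418 and 4801 under pyrimethamine, and 5225, 5483, 5707 and 5581 in controls. The groups did not overlap, and mitoxantrone was 1.46-fold above control and 1.73-fold above pyrimethamine. Its relatives changed less, GNL2 by 0.07 under mitoxantrone and -0.09 under pyrimethamine and GNL3L by -0.06 and 0.02, and of these 4 tests none passed (limma adjusted p = 0.0688 at least). GNL2 was called for mitoxantrone without mitoxantrone replicate 1 (0.0123), and for pyrimethamine without that library, control replicate 1 or pyrimethamine replicate 2 (0.0242 to 0.0328). At the same total GNL3L had -0.16 under mitoxantrone (adjusted p = 0.0157). RRP1B had 5324, 5538, 5164 and 4966 normalized counts under mitoxantrone, 5702, 6107, 5949 and 6153 under pyrimethamine, and 5847, 5783, 5685 and 5639 in controls. It was lower under mitoxantrone than in either other group (-0.13 against control, -0.19 against pyrimethamine), and its paralog RRP1 had -0.12 against control in each drug, which passed the test for mitoxantrone and not for pyrimethamine (limma adjusted p = 0.0588).

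The RRP1 call for mitoxantrone (limma adjusted p = 0.0494) was lost when any of control replicates 2 to 4, pyrimethamine replicates 1, 3 or 4 or mitoxantrone replicates 2 to 4 was left out (0.0532 to 0.162), and with edgeR (0.0568) and DESeq2 (0.0573). For pyrimethamine RRP1 was called without control replicate 1 (0.0358), pyrimethamine replicate 2 (0.00901) or mitoxantrone replicate 1 (0.0323). NOP16 rose by 0.49 under mitoxantrone and LAS1L, the endonuclease that cuts the spacer before the 28S RNA, by 0.21, and neither was called for pyrimethamine (limma adjusted p = 0.141 and 0.50). The helicase DDX18 rose by 0.20 under mitoxantrone, and its fall under pyrimethamine (-0.11, limma adjusted p = 0.0245) was lost without control replicate 3 (0.11) or pyrimethamine replicate 3 (0.0680). NIP7 had 0.07 and -0.05 under mitoxantrone and pyrimethamine, and neither was called, although the mitoxantrone value reached 0.12 without mitoxantrone replicate 1 (limma adjusted p = 0.00514).

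NOP2, an rRNA methyltransferase gene, was listed at only 12.4 to 19.1 normalized counts under mitoxantrone, 15.1 to 21.5 under pyrimethamine and 8.42 to 21.1 in controls. Of its annotated exon bases 54.4% also belong to AC006064.6 on the same strand, a gene at 0 in all 12 libraries. How reads that overlap several genes were treated is not given in the sources used here, so its level cannot be read, and it was not called in any comparison.

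Beyond these members, 49 other pre-60S factors were tested. Under mitoxantrone 29 were higher and 11 lower than in controls (median log2 change 0.19), and under pyrimethamine 11 were higher and 12 lower (median 0.0058). All tested genes gave 33.5% and 35.8%, and 26.4% and 26.9%, in the same order. PPAN rose most under mitoxantrone, by 0.89, at 388 against 210 normalized counts in controls, followed by NOL12 at few reads, by 0.83. Exon overlap with other genes was not checked for these factors. URB1, and SBDS, the gene of Shwachman-Diamond syndrome, had -0.57 and -0.39 there. Under pyrimethamine MDN1, the giant remodeling ATPase, rose by 0.76 and EBNA1BP2 by 0.46. EFL1, the GTPase that works with SBDS to release the anti-association factor, had -0.67 under pyrimethamine, and NVL had -0.23.

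Of 13 pre-40S members, 11 (84.6%) were called between mitoxantrone and pyrimethamine, close to the 76.4% of all tested genes. Under mitoxantrone 8 of 13 were higher and 3 lower than in controls, and under pyrimethamine 1 was higher and 8 lower. DDX47, at few reads, was the 1 higher under pyrimethamine and among the 3 lower under mitoxantrone. All tested genes gave 33.5% and 35.8%, and 26.4% and 26.9%, in the same order. NOB1 encodes the endonuclease that makes the 3′ end of 18S rRNA. It had 9315, 10734, 10303 and 10184 normalized counts under mitoxantrone, 5825, 5601, 5761 and 5542 under pyrimethamine, and 7463, 7676, 7326 and 7637 in controls. The groups did not overlap, at 0.43 ± 0.04 (SE) under mitoxantrone and -0.41 ± 0.04 (SE) under pyrimethamine (limma adjusted p = 4.92e-09 and 2.92e-08). Mitoxantrone was 1.78-fold above pyrimethamine. Of the NOB1 exon bases 20.2% overlap AC092115.3 on the other strand, so some reads may belong to that gene. The same holds for 20.2% of NIP7, 20.0% of NOP16 and 17.1% of NOP14.

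UTP18, a small-subunit processome protein that in yeast recruits the RNA exosome, had 6622, 7157, 6661 and 7237 normalized counts under mitoxantrone, 4251, 4088, 4015 and 3947 under pyrimethamine, and 4850, 4860, 4761 and 5152 in controls. Again no library overlapped another group, at 0.50 for mitoxantrone and -0.27 for pyrimethamine against control. UTP20 followed the same order, at 0.36 and -0.33, and UTP14A likewise at 0.38 and -0.29, although mitoxantrone replicate 1 held 4869 normalized counts of UTP14A against 6166 to 6821 in the other mitoxantrone libraries. NOP14 and the helicase DDX10 rose by 0.24 and 0.13 under mitoxantrone and had -0.12 and -0.14 under pyrimethamine. The NOP14 fall (limma adjusted p = 0.0265) was lost without control replicate 1 or 4 or any 1 of pyrimethamine replicates 1, 3 and 4 (0.0532 to 0.103). The DDX10 rise under mitoxantrone was lost with libraries rescaled to the same total (0.03, limma adjusted p = 0.516) and under quantile normalization (0.09, limma adjusted p = 0.0544).

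The genes of UTP-A proteins, which in human cells also support transcription of the ribosomal DNA, were not alike. WDR43 rose by 0.29 under mitoxantrone and had 0.02 under pyrimethamine (limma adjusted p = 0.653). UTP15 had -0.01 under mitoxantrone (limma adjusted p = 0.776, and -0.12 with adjusted p = 0.0194 at the same total) and -0.23 under pyrimethamine (limma adjusted p = 8.53e-05). WDR75 was lower with both, at -0.10 and -0.15 (limma adjusted p = 0.0203 and 0.00128), and the mitoxantrone call was lost without control replicate 1 or 2 or mitoxantrone replicate 2 or 3 (0.0517 to 0.0672).

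RRP12, named here after its values were seen, had the largest fall under mitoxantrone after DDX47. In yeast its protein helps to export pre-ribosomes. It had 7981, 8807, 7518 and 7014 normalized counts under mitoxantrone, 11485, 11025, 10973 and 11057 under pyrimethamine, and 10239, 11213, 10268 and 10589 in controls. All mitoxantrone libraries lay below all others, at -0.44 ± 0.05 (SE) against control (limma adjusted p = 1.39e-07), and pyrimethamine had 0.07 (limma adjusted p = 0.230). RRP9, a U3 snoRNP protein, rose by 0.18 under mitoxantrone (limma adjusted p = 0.00462), a call lost with libraries rescaled to the same total (0.08, adjusted p = 0.174), and had 0.12 under pyrimethamine (limma adjusted p = 0.0624), called without control replicate 4, pyrimethamine replicate 4 or mitoxantrone replicate 1 or 2 (0.0280 to 0.0455). BYSL, an adapter of 40S maturation, had 0.09 and -0.07 against control (limma adjusted p = 0.0827 and 0.221) and was 0.15 higher under mitoxantrone than under pyrimethamine (limma adjusted p = 0.00350). The first was called without control replicate 4 or mitoxantrone replicate 1 (0.0284 and 0.0335), and the second without control replicate 1 (0.0449).

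DDX47, a helicase of 18S processing, was measured at few reads. It had 21.7, 32.4, 28.5 and 15.2 normalized counts under mitoxantrone, 57.0, 78.8, 73.7 and 70.1 under pyrimethamine, and 31.8, 33.7, 54.0 and 40.8 in controls. APOLD1, whose annotation takes in 36.5% of the DDX47 exon bases on the same strand, had 190 to 203 normalized counts under mitoxantrone, 1097 to 1270 under pyrimethamine and 325 to 439 in controls, the same order of groups. Its part in the DDX47 values was not tested. The DDX47 log2 changes were -0.71 for mitoxantrone (limma adjusted p = 0.0170) and 0.81 for pyrimethamine (limma adjusted p = 0.0107), and the mitoxantrone call was lost without control replicate 3 (0.0712) or mitoxantrone replicate 4 (0.0768), and under quantile normalization (-0.30, adjusted p = 0.305).

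Of 48 other pre-40S and processome factors, 29 were higher and 12 lower under mitoxantrone than in controls (median log2 change 0.14). Under pyrimethamine 19 were higher and 15 lower (median 0.03), where the 13 pre-40S members had 1 higher and 8 lower (median -0.14). The kinase genes RIOK1, RIOK2 and RIOK3 act late in 40S maturation. RIOK1 rose by 0.49 under mitoxantrone, and under pyrimethamine RIOK3 rose by 0.74 while RIOK2 had -0.41. IMP4 of the U3 particle rose by 0.53 under mitoxantrone, and PDCD11 and the helicase DHX37 had -0.45 and -0.35. DDX49 rose by 0.52 and RRP8 had -0.41 under pyrimethamine. Among 14 genes of the RNA exosome, which trims the precursor, 7 were higher and 1, EXOSC4, lower under mitoxantrone, with EXOSC8 at 0.76 and EXOSC5 at 0.60, and 5 were higher and 5 lower under pyrimethamine, with EXOSC5 at 0.30 and EXOSC10 at -0.41. Beside both lists, all tested genes gave 33.5% higher and 35.8% lower under mitoxantrone, and 26.4% and 26.9% under pyrimethamine.

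MYC with its partner MAX binds the E-box CACGTG, which reads the same on both strands. RefSeq promoter windows (GRCh38.p14, 250 bases before to 50 after the start) were found for 37 members by symbol, 45 windows in all. BOP1, DDX18, MYC, NOLC1, NOP58, RRP12, RRP1B and TCOF1 had none. The letters CACGTG occurred in 15 of the 45 windows (33.3%), those of 15 members, against 2548 of 35116 windows of all genes (7.26%) and 1851 of 22199 windows of protein-coding genes (8.34%). Of the 17 matches, 14 began between 40 bases before and 40 after the start. The stretches below run from 70 bases before to 30 after the start for the 4 members with a match there and the largest called change between the drugs, and are shown because 3 of these genes were higher and 1 lower under mitoxantrone with the same letters at the start. Capitals mark CACGTG. They lie at chr3:52685962-52686061 (plus strand) for GNL3, chr17:51260476-51260575 (plus) for UTP18, chr12:101280035-101280134 (plus) for UTP20 and chr15:34343107-34343206 (minus) for NOP10.
GNL3: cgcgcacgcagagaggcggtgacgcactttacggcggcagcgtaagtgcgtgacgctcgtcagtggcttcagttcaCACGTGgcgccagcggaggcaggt
UTP18: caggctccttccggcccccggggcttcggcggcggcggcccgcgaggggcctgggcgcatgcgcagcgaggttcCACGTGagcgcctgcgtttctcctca
UTP20: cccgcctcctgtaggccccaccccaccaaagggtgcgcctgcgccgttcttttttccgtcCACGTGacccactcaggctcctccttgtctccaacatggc
NOP10: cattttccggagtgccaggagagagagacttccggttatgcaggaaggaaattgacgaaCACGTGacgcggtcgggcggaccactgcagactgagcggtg
The match begins 7 bases into the transcript in GNL3 and 5 in UTP18, and 10 and 11 bases before the start in UTP20 and NOP10. Another window of GNL3, at a different start, had no match. GNL3, UTP18 and UTP20 had log2 changes of 0.79, 0.76 and 0.69 between mitoxantrone and pyrimethamine, and NOP10 had -0.53. Members without a match in any window changed as much, such as NOB1 at 0.83 and UBTF at 0.77. Other members with a match went both ways, such as GNL2 at 0.17 and PES1 at -0.10. A match of letters is a description of the sequence and says nothing of binding.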

How the data were processed

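Total RNA was sequenced from 12 KYSE70 samples. Tools named in the submitters' processing notes are STAR 2.6.90c, featureCounts 1.5.1, cutadapt 1.12 and FastQC 0.11.5, with builds hg38 and mm10; annotation release and strand setting are not given in the sources used here. The deposited values are a normalized signal: the authors scaled each library's counts by its own factor, and 100% of values are whole numbers of reads (within 0.01) once multiplied by that factor, which equals a median-of-ratios size factor. Libraries hold 47465335 to 94516756 reads.

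Genes with at least 10 in at least 4 libraries were tested (16950) with limma 3.58.1 (R 4.3.3) on log2(value + 1) over all 12 libraries, group as the only term, eBayes with trend, two-sided, Benjamini-Hochberg, call at 0.05. Log2 changes of genes with few counts are understated. edgeR 4.0.16 and DESeq2 1.42.0 on recovered reads, other scalings, filters and pseudocounts, a replicate block and each library left out were alternatives. The test was also run on simulated counts in which few genes changed, unlike these data, and no result here rests on that run. Coordinates and exon overlap, found for the members only, are from GENCODE 29 (GRCh38). Promoters are from RefSeq. Python was 3.11.15 and pandas 2.3.3. Every replicate pair differed beyond counting noise, those with mitoxantrone replicate 1 most within its group.

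Members and lists were chosen with earlier results of these data known. Values per library are given for MYC, the RNA polymerase I genes and, in each other step, the largest called rise and fall of each comparison; other lists are given by counts and their 2 largest rises and falls against control.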

Additional observations from a re-analysis of the deposited data

Results flagged for a closer look

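In each group of 4 libraries the highest or lowest was compared with its neighbor by Dixon's ratio, over 135 gene and group combinations. This marks about 1 in 20 by chance, and 13 were marked. Mitoxantrone replicate 1 was low for NPM1 (131538 normalized counts, others 152075 to 154269), NHP2 (8610, others 9908 to 10159) and DDX18 (17418, others 19144 to 19366). Mitoxantrone replicate 2 was high for UBTF (10648, others 9722 to 9792). Among pyrimethamine libraries, replicate 1 was high for POLR1B (12304, others 11481 to 11561) and RRP12 (11485, others 10973 to 11057), replicate 2 for GNL2 (6737, others 6171 to 6234) and RRP1 (2908, others 2518 to 2540) and replicate 4 for NPM1 (113167, others 109584 to 110105), and replicate 3 was low for RRN3 (6715, others 6903 to 6911). Among controls, replicate 4 was high for TCOF1 (13571, others 12878 to 12979) and low for WDR75 (5198, others 5476 to 5501), and replicate 1 was low for GNL2 (6401, others 6842 to 6913).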

How the results depend on the processing

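With libraries rescaled to the same total, the median log2 change of the 45 members was 0.10 for mitoxantrone and -0.10 for pyrimethamine against control and 0.18 between the drugs, and 25 members were lower under pyrimethamine. Quantile normalization gave a median of 0.13 for mitoxantrone against control, and upper-quartile rescaling -0.00825 for pyrimethamine. Under quantile normalization NOLC1 turned to -0.11 for mitoxantrone and -0.0028 for pyrimethamine, and NPM1 to -0.13 for pyrimethamine, each against control. The cause was not tested. With 1 library left out, members called higher and lower ranged over 26 to 30 and 8 to 10 for mitoxantrone against control, 9 to 12 and 14 to 18 for pyrimethamine against control, and 27 to 29 and 9 between the drugs. Of called members, 31 of 36, 22 of 26 and 33 of 37 in the same order kept call and direction in every alternative that gave a value; a mean of at least 100 left out NOP2 and DDX47. Same-numbered libraries did not deviate together (correlations -0.0133 to 0.0295). This cannot tell whether libraries of the same number were cultured or prepared together. The replicate block gave 27 and 10, 11 and 17, and 28 and 9 members higher and lower in the same order. Over all genes limma called 11745, 9042 and 12956 in that order, edgeR on recovered reads 11765, 9286 and 12943, and DESeq2 11834, 9318 and 12960. Reads limit NOP2 and DDX47 most.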
